A study of Homo sapiens with 6 samples.

Results

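H460 cells are a human non-small cell lung carcinoma line, and BAY 87-2243 is a small molecule that was developed as an inhibitor of HIF-1 activation. The study reports that it acts on the HIF pathway by blocking complex I of the mitochondrial respiratory chain. Here hypoxic H460 cells that had received only vehicle were set against normoxic H460 cells that had received 100 nM BAY 87-2243, which gave the hypoxic response a baseline other than vehicle-treated normoxia. The comparison used 2 of the 6 arrays of the study, and covered 18417 genes. Hypoxic cells with DMSO were kept at 1% pO2 for 16 h. Normoxic cells with 100 nM were kept for 16 h at normal oxygen with the compound. The other 4 arrays held normoxic cells with DMSO, hypoxic cells with 100 nM, and a pair of hypoxic cultures with 1 nM and 10 nM whose title and source name give opposite concentrations, so that no order of dose was read from them. In all 6 cultures the incubation medium held 0.5% serum (FCS), and cells without the compound received 0.1% DMSO.

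Each condition was 1 array of 1 culture, so the differences below have no replicate check, no test was possible, and a difference of at least 2-fold (1 on the log2 scale) was used as a size rule only. Oxygen and compound both differed between the hypoxic array with DMSO and the normoxic array with 100 nM, and their parts in this contrast cannot be told apart. For that reason the value on the normoxic array with DMSO is given beside the leading genes. Unless another pair of arrays is named, a log2 difference is hypoxia with DMSO minus the named normoxic array, or minus normoxia with 100 nM where none is named, and intensities of different genes were not compared with each other, since each probe set has its own response. An array reads the RNA of a whole culture, so fewer cells that make a transcript and less of it per cell cannot be told apart.

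Hypoxia-inducible factors are pairs of an oxygen-labile alpha subunit (HIF1A or EPAS1) and a stable partner (ARNT). At normal oxygen, prolyl hydroxylases of the EGLN family mark the alpha subunit, VHL binds it and it is degraded. At low oxygen the pair accumulates, binds DNA at sites with the core letters ACGTG or GCGTG, and turns on genes for glucose use, blood vessel growth, lipid storage and the removal of mitochondria.

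Of the 18417 genes, 311 (1.69%) reached at least 2-fold higher intensity on the hypoxic array with DMSO, relative to normoxia with 100 nM, and 245 (1.33%) were lower by 2-fold or more. When every array was centred on its median, the counts were 244 higher and 357 lower, so the balance of the directions depended on the scaling. The increases reached further than the decreases, with 41 genes up by 4-fold or more and 13 down by 4-fold or more, and 11 genes up by 8-fold or more and 1 down by as much. The median log2 difference over all genes was 0.05. Of the 11307 genes brighter than the median probe set, 245 were higher and 214 were lower, whereas of the 7110 dimmer genes 66 were higher and 31 were lower. Against the normoxic array with DMSO, the same hypoxic array had 307 genes higher (1.67%) and 677 lower (3.68%). These contrasts share the hypoxic array, so their counts are not independent. The number of higher genes was close under either baseline, and the number of lower genes was not.

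**Figure D1:**
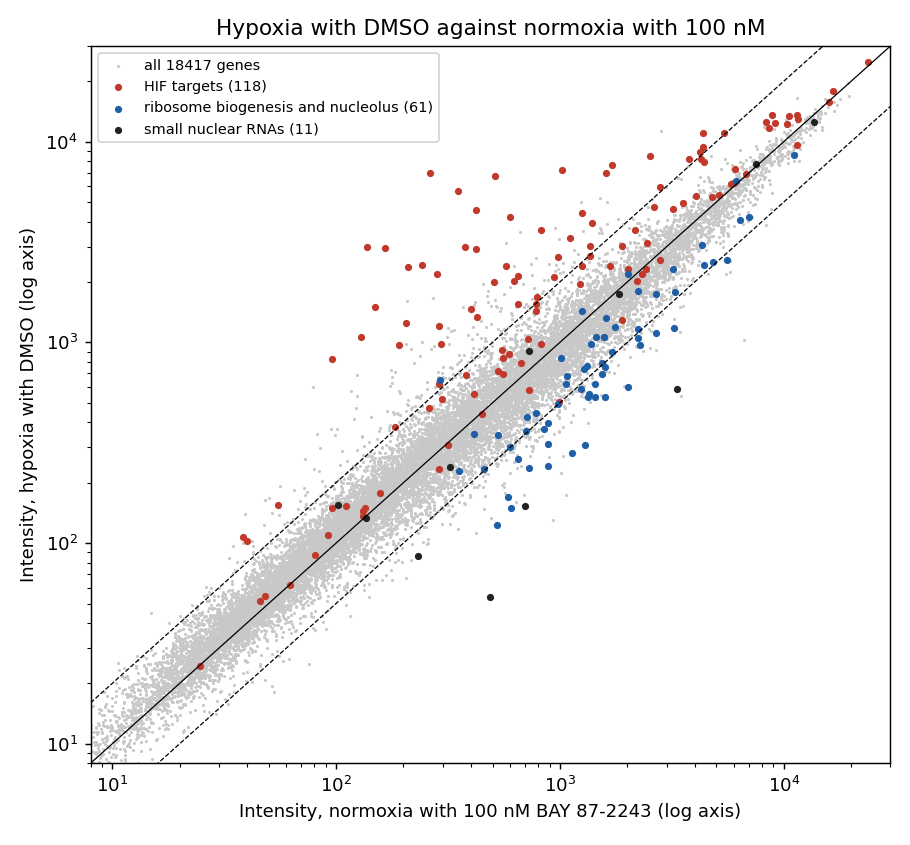
Intensity of each of the 18417 genes on the hypoxic array with DMSO (vertical log axis) and on the normoxic array with 100 nM BAY 87-2243 (horizontal log axis), from an intensity of 8 upward. The solid line marks equal values and the dashed lines 2-fold. Of the 118 HIF targets (red) 103 lie above the solid line, 57 of the 61 ribosome biogenesis genes (blue) lie below it, and 4 of 11 small nuclear RNAs (black) lie below the lower dashed line. These 4 are 36.4% of a list made after the values were seen, against 1.33% of all genes.

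The other array pairs give a scale for these differences. Among the brighter genes, 95% lay within 1.92-fold for hypoxia with DMSO over normoxia with 100 nM, and within 2.21-fold for hypoxia with DMSO over normoxia with DMSO. The closest pair of the series was hypoxia with 100 nM over normoxia with 100 nM, for which 95% of brighter genes lay within 1.28-fold and 39 genes differed by at least 2-fold. The 5 pairs that include the normoxic array with DMSO had limits of 1.60- to 2.21-fold, against 1.28- to 1.92-fold for the 10 other pairs. Markers of the line were alike on the arrays compared. KRT8, KRT18, KRT19 and VIM had intensities of 8273 to 11774 in hypoxia with DMSO and 7807 to 11242 in normoxia with 100 nM, whereas the lung epithelial markers NKX2-1, SFTPB, SFTPC and NAPSA had 61.0 to 91.4 and 58.7 to 82.8, below the array medians of 138 and 130. Of 11 line markers 5 were above the array median on each of the 6 arrays. The list also held the epithelial markers KRT7, EPCAM and CDH1, and most of these lay below the median on the arrays compared. Of the 14 measured markers of leukocytes, endothelium, fibroblasts, liver or red cells, 6 were also above the array median on each array compared. None of the 14 passed 2-fold, and their summed intensity was 6484 in hypoxia with DMSO and 5281 in normoxia with 100 nM. CD68, a lysosomal protein that many cells make, held most of that sum with 4763 and 3839, whereas the leukocyte marker PTPRC had 19.2 and 17.8.

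HILPDA, which encodes a lipid droplet protein that inhibits the lipase ATGL, had the largest increase of all genes. Its intensity was 6976 in hypoxia with DMSO and 264 in normoxia with 100 nM, a 26.5-fold difference. On the normoxic array with DMSO it was 1127, so the log2 difference was 4.73 against normoxia with 100 nM and 2.63 against normoxia with DMSO. The normoxic arrays themselves thus differed at this gene by more than 4-fold, and the baseline decides how large its hypoxic response reads. ANKRD37, a small ankyrin repeat protein gene, had intensities of 2995 in hypoxia with DMSO, 137 in normoxia with 100 nM and 216 in normoxia with DMSO. NRN1, which encodes the neurite growth protein neuritin, had 2970 in hypoxia with DMSO, 166 in normoxia with 100 nM and 597 in normoxia with DMSO. ADM, the gene of the vasodilator peptide adrenomedullin, had 5686 in hypoxia with DMSO, 351 in normoxia with 100 nM and 479 in normoxia with DMSO. For ANKRD37 and ADM the normoxic arrays differed by less than 2-fold, and the log2 differences of 4.45 and 4.02 against normoxia with 100 nM became 3.79 and 3.57 against normoxia with DMSO. For NRN1 they were further apart, with 4.16 against normoxia with 100 nM and 2.31 against normoxia with DMSO. ANGPTL4, a secreted inhibitor of lipoprotein lipase, had 6763 in hypoxia with DMSO, 511 in normoxia with 100 nM and 911 in normoxia with DMSO, and log2 differences of 3.73 and 2.89.

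The promoters of the 4 HIF targets with the largest increase that had a RefSeq promoter record (build GRCh38.p14) are printed here because the core letters of the HIF site can be looked for in them. Each runs 250 bases before and 50 bases after the annotated start, in the direction of the gene, and capitals mark ACGTG or GCGTG on either strand. ANKRD37 lies at chr4:185396591-185396890 on the plus strand, NRN1 at chr6:6003976-6004275 on the minus strand, ADM at chr11:10304823-10305122 on the plus strand, and ANGPTL4 at chr19:8363905-8364204 on the plus strand.
ANKRD37: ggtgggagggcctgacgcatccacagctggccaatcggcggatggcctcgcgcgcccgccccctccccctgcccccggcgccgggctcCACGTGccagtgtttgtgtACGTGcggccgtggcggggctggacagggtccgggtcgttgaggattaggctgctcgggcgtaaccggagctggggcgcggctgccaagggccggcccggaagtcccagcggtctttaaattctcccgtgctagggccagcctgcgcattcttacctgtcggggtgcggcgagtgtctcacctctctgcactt
NRN1: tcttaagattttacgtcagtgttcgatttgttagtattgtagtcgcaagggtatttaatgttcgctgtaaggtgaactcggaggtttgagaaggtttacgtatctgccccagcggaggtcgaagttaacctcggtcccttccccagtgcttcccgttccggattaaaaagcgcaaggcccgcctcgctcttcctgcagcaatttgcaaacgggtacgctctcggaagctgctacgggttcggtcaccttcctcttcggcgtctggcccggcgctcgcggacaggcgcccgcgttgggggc
ADM: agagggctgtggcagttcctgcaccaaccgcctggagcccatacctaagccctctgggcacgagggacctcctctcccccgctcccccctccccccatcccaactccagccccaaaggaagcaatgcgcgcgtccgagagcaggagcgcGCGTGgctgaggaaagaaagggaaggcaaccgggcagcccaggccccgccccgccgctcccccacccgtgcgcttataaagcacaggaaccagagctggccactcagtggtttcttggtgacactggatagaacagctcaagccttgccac
ANGPTL4: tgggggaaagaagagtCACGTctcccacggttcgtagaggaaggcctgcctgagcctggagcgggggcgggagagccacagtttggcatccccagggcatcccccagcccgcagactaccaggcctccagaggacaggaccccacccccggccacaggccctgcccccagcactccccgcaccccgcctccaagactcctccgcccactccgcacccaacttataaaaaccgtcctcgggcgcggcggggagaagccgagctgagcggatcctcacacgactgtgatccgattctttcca

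The ANKRD37 window held the palindrome CACGTG, which reads as ACGTG on each strand, starting 162 bases before the start, and a further ACGTG 143 bases before it. The ADM window held GCGTG 101 bases before the start, the ANGPTL4 window held ACGTG on the opposite strand 234 bases before it, and the NRN1 window held none of these letters. The core is short and common. It was in 56.7% of the 14239 promoters of measured genes, in 62.5% of the 248 promoters of genes at least 2-fold higher, in 68.9% of the 190 promoters of genes at least 2-fold lower, and in 56.4% of those within 2-fold. The stricter ACGTG was in 36.7% of the promoters of higher genes, 30.0% of those of lower genes and 24.0% of all, and the palindrome CACGTG, which is also the E-box that MYC and its relatives bind and which holds ACGTG, was in 15.3%, 18.9% and 8.88% of the same groups. A match is a run of letters and not evidence of binding.

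The 118 HIF targets drawn together from lists of glycolysis, glycogen, secreted, lipid and mitophagy, collagen and feedback genes had a median log2 difference of 0.79, against 0.05 for all genes. At least 2-fold higher were 49 of 118 (41.5%, against 1.69% of all genes) and none was at least 2-fold lower. Of the 49, 23 were at least 4-fold and 11 at least 8-fold higher. Against normoxia with DMSO the same list had a median of 0.76, with 44 higher (37.3%, against 1.67% of all genes) and none lower. These lists were put together with the hypoxic response of this line already known, and so the counts describe them and are no independent support.

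Lipid droplet, mitophagy and stress genes were the HIF group with the largest median, 1.64 on the log2 scale. Of the 19, 13 were at least 2-fold higher (68.4%, against 1.69% of all genes). PLIN2, which coats lipid droplets, had 2367 in hypoxia with DMSO, 210 in normoxia with 100 nM and 368 in normoxia with DMSO. INSIG2, an ER protein that holds back the sterol sensor SCAP, had 1503, 150 and 322 on the same 3 arrays. TMEM45A, a membrane protein gene known as a hypoxia marker in tumours, had 829, 96.4 and 196. All 3 were lowest in normoxia with 100 nM, as was HILPDA. NDRG1, a stress-induced growth regulator, differed in this, with 7207 in hypoxia with DMSO and nearly equal normoxic values of 1023 with 100 nM and 1070 with DMSO. FUNDC1, a mitophagy receptor, lay within 2-fold at a log2 difference of -0.33, and SAMD4A at 0.42.

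**Figure D2:**
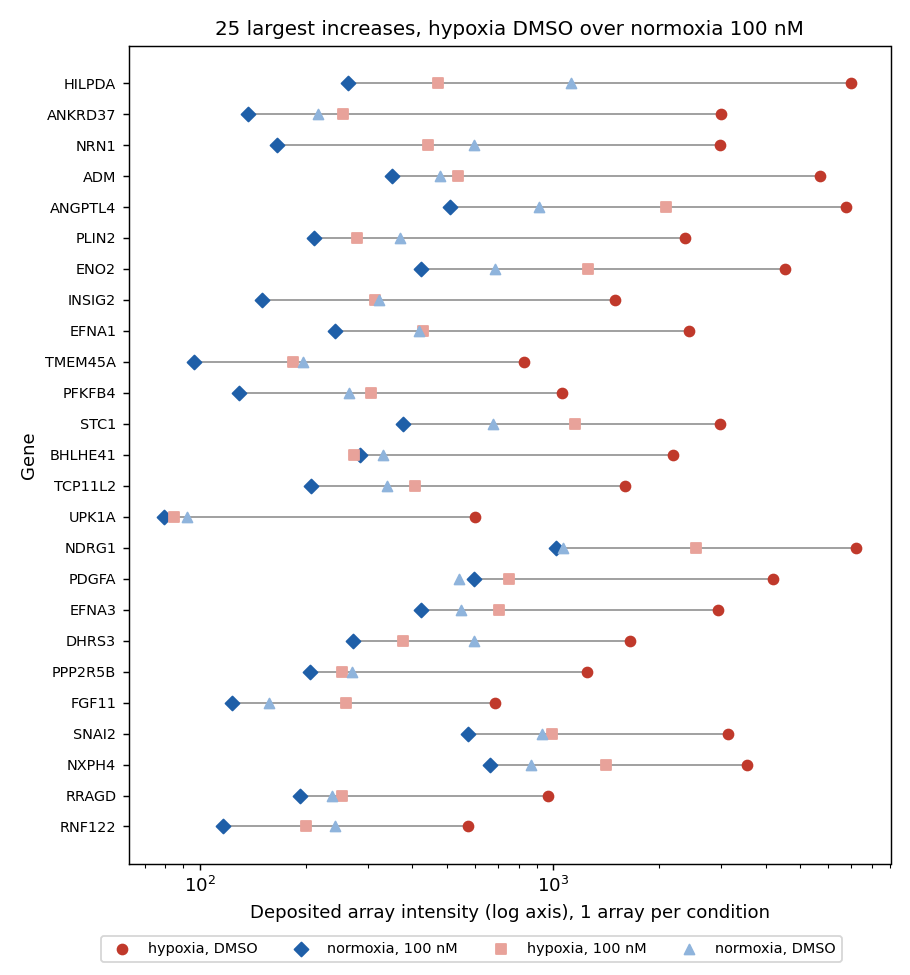
Intensity (horizontal log axis) of the 25 genes with the largest increase in hypoxia with DMSO over normoxia with 100 nM, on 4 of the arrays, with 1 point per array and a grey line joining the arrays compared. In 23 of the 25 genes the normoxic array with 100 nM was the lowest of all 6 arrays, and the hypoxic array with DMSO was the highest or next to highest in all 25. The ranking used these arrays, so it favours genes with a low value in normoxia with 100 nM.

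Among secreted and surface proteins 13 of 28 measured genes were at least 2-fold higher (46.4%, against 1.69% of all genes). The median log2 difference was 0.62. EFNA1, a ligand of Eph receptors, had 2427 in hypoxia with DMSO, 242 in normoxia with 100 nM and 419 in normoxia with DMSO. STC1, which encodes the glycoprotein hormone stanniocalcin, had 2974, 377 and 676 on these arrays. PDGFA, a growth factor of mesenchymal cells, had 4201, 597 and 542. PDGFA was thus the exception among these leading genes, with its lower normoxic value on the DMSO array. VEGFA, the main angiogenic factor, had 1999 in hypoxia with DMSO and 505 in normoxia with 100 nM, but 1342 in normoxia with DMSO, so that its log2 difference of 1.98 was 0.58 against the DMSO baseline. STC2, the relative of STC1 that is also induced by ATF4, had 1204, 290 and 1094, with a log2 difference of 2.06 against normoxia with 100 nM and 0.14 against normoxia with DMSO. Whether VEGFA and STC2 pass 2-fold therefore depended on which normoxic array was used. FLT1, a VEGF receptor, and LEP, the gene of leptin, had the smallest differences of the list, -0.02 and -0.01. Both were dim, FLT1 with 24.3 in hypoxia with DMSO and 24.7 in normoxia with 100 nM and LEP with 61.8 and 62.0, below the array medians of 138 and 130.

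Genes that regulate HIF or chromatin had a median log2 difference of 1.10, and 10 of 19 were at least 2-fold higher (52.6%, against 1.69% of all genes). BHLHE41, a transcriptional repressor of the clock, had 2195 in hypoxia with DMSO, 284 in normoxia with 100 nM and 330 in normoxia with DMSO. EGLN3, a HIF prolyl hydroxylase that is itself a HIF target, had 2399, 572 and 1203, and EGLN1, the main oxygen sensor, had 2655, 982 and 1552. For EGLN3 and EGLN1 the log2 differences of 2.07 and 1.43 became 0.99 and 0.77 against normoxia with DMSO, both under the 2-fold limit. CITED2, which competes with HIF for the coactivator EP300, and KDM3A, a histone H3 lysine demethylase, went the other way. CITED2 had 11091 in hypoxia with DMSO, 4353 in normoxia with 100 nM and 2796 in normoxia with DMSO, and KDM3A had 1562, 650 and 537. MXI1, a MYC antagonist, had a log2 difference of 1.86 against normoxia with 100 nM.

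A further list held the subunits of HIF, VHL and its partners and the HIF coactivators, without the hydroxylases EGLN1 and EGLN3 given above. None of its 14 genes passed 2-fold, and the median log2 difference was 0.03. HIF1A had 3872 in hypoxia with DMSO and 5105 in normoxia with 100 nM, EPAS1 had 2333 and 1450, and ARNT had 2200 and 1682. VHL had 310 in hypoxia with DMSO and 307 in normoxia with 100 nM, a log2 difference of 0.02, but 622 in normoxia with DMSO. The low VHL reading of the hypoxic array against vehicle-treated normoxia was therefore absent with the other baseline, and VHL intensities of the 5 arrays other than normoxia with DMSO were 264 to 330. CA9 and EGLN2 had no probe set of a single symbol and were not analysed here. Of 9 reference genes none passed 2-fold. ACTB had 13440 and 14191, B2M 3113 and 3310, and GAPDH 24913 and 23702 in hypoxia with DMSO and normoxia with 100 nM. The GAPDH intensity in hypoxia with DMSO was the highest on that array, where a difference may be compressed.

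Genes of glucose uptake and glycolysis had a median log2 difference of 0.40, and 4 of 21 were at least 2-fold higher (19.05%, against 1.69% of all genes). ENO2, neuronal enolase, had 4548 in hypoxia with DMSO, 424 in normoxia with 100 nM and 684 in normoxia with DMSO. PFKFB4, which makes the activator of phosphofructokinase, had 1061, 130 and 265, and ALDOC, the brain aldolase, had 7696, 1701 and 1706. HK2, the inducible hexokinase, had 4402, 1259 and 1577. LDHA, lactate dehydrogenase A, had 15740 in hypoxia with DMSO and 15903 in normoxia with 100 nM, a log2 difference of -0.01. These LDHA intensities were near the top of the range of the arrays, which reached 24913 and 25086. Glycogen enzymes had 3 of 13 higher (23.1%), with a median of 0.66. They were PPP1R3B and PPP1R3C, which target a phosphatase to glycogen, at 1.74 and 1.11, and GYS1, muscle glycogen synthase, at 1.57.

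Pyruvate dehydrogenase kinases close the gate between glycolysis and the TCA cycle. PDK3 had 2019 in hypoxia with DMSO and 624 in normoxia with 100 nM, PDK4 had 2417 and 963, and PDK1 had 5946 and 2795. On the normoxic array with DMSO they had 892, 943 and 3204. PDK1 was under 2-fold at 0.89 on the log2 scale against that array, and at 0.996 when arrays were centred on their medians. These 3 were the only members of the 13 pyruvate dehydrogenase genes past 2-fold against normoxia with 100 nM (23.1%, against 1.69% of all genes higher). PDHX, a subunit of the complex itself, was at 0.00 on the log2 scale. None of 21 TCA cycle and glutamine genes and none of 34 genes of respiratory complexes II to V passed 2-fold, with medians of -0.02 and -0.02. Collagen modifying enzymes had 4 of 16 higher, among them P4HA2, a collagen prolyl hydroxylase, with 3625 in hypoxia with DMSO and 824 in normoxia with 100 nM, LOXL2, a lysyl oxidase, at a log2 difference of 1.72, and PLOD2, a lysyl hydroxylase, at 1.51. LOX itself was dim, with 102 and 40.0.

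Complex I is the target of the compound in mitochondria. Among 34 structural subunits none passed 2-fold and the median log2 difference was -0.06, with 21 below 0. Of these NDUFB6 lay just inside the limit at -0.92. NDUFS1, an iron-sulfur subunit, had 3069 in hypoxia with DMSO and 3075 in normoxia with 100 nM. All 7 assembly factors, which build the complex without staying in it, were below 0, with a median of -0.67 and 3 at least 2-fold lower (42.9%, against 1.33% of all genes). Subunits spanned -0.92 to 0.25 and assembly factors -1.32 to -0.10, so these groups overlapped, and the difference between them was not tested. NDUFAF4 had 1301 and 3249, NDUFAF1 had 305 and 704, and NDUFAF5 had 174 and 397. On the other normoxic array these 3 had 2937, 551 and 413, so that the lower values of the hypoxic array stood against either baseline, NDUFAF1 at -0.86 being under the 2-fold limit there. COXFA4L2, long known as NDUFA4L2 and listed here with complex I although its family is now placed with complex IV, was the single member that was higher, with 956 in hypoxia with DMSO, 274 in normoxia with 100 nM and 303 in normoxia with DMSO.

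Of the 9 largest decreases among genes that reached the array median on either array, 5 were small noncoding RNAs and the others were DKK1, TFRC, PIGW and PPRC1. The ribosome biogenesis list held 7 of the 25 largest. TFRC, the transferrin receptor that brings iron into cells, had 1028 in hypoxia with DMSO, 6633 in normoxia with 100 nM and 6222 in normoxia with DMSO, a 6.45-fold difference against the 100 nM array. It was the only one of 14 iron genes past 2-fold. PIGW, an enzyme of GPI anchor synthesis, had 173, 1067 and 1146. CDC25A, the phosphatase that releases cells into S phase, had 161, 638 and 624, and ELOVL6, which elongates fatty acids, had 270, 1032 and 1331. For these 4 genes the normoxic arrays differed by less than 1.5-fold. DKK1, a secreted WNT antagonist, did not share this, with 541 in hypoxia with DMSO, 3490 in normoxia with 100 nM and 1057 in normoxia with DMSO. NMRAL2P, a pseudogene transcript known as an NRF2 target, had 398, 1342 and 3346. The baseline thus shifted DKK1 and NMRAL2P in opposite directions, with log2 differences of -2.69 and -1.75 against normoxia with 100 nM and of -0.97 and -3.07 against normoxia with DMSO.

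**Figure D3:**
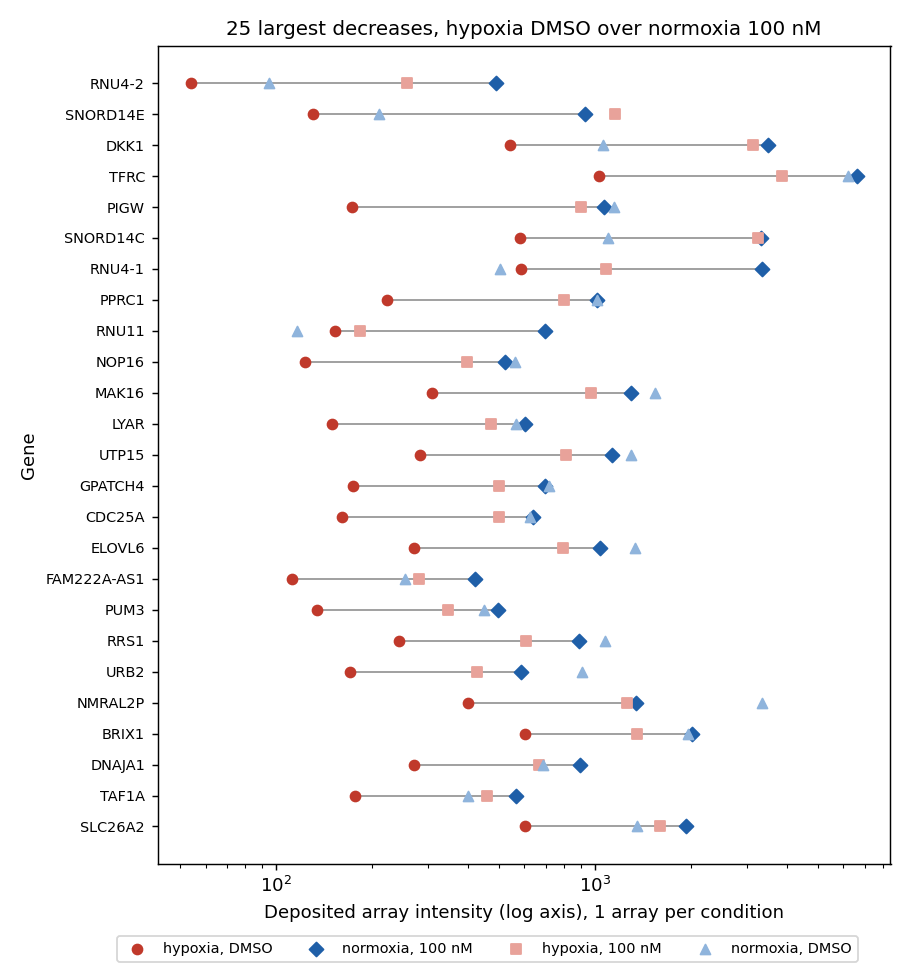
Intensity (horizontal log axis) of the 25 genes with the largest decrease in hypoxia with DMSO over normoxia with 100 nM, on 4 of the arrays, with 1 point per array and a grey line joining the arrays compared. The hypoxic array with DMSO was the lowest of all 6 arrays in 23 of the 25 genes, and the exceptions were RNU4-1 and RNU11, in which normoxia with DMSO lay lower in the plot. The ranking used the arrays compared, so it favours genes with a low value in hypoxia with DMSO.

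Ribosome biogenesis genes were the protein-coding list with the most decreases. Of 61 measured, 25 (41.0%, against 1.33% of all genes) were at least 2-fold lower and 1 was higher, and 57 were below 0, with a median log2 difference of -0.94. Against normoxia with DMSO the same list had 30 lower (49.2%, against 3.68% of all genes with that baseline), none higher and a median of -0.96. NOP16, a nucleolar protein of the large subunit pathway, had 123 in hypoxia with DMSO, 522 in normoxia with 100 nM and 558 in normoxia with DMSO. MAK16, known from yeast as a factor of the large subunit, had 307, 1298 and 1540, and UTP15, a part of the small subunit processome, had 281, 1130 and 1297. LYAR, a nucleolar zinc finger protein, had 150, 603 and 563, and RRS1, which in yeast helps load 5S RNA, had 242, 888 and 1070. All 5 had normoxic values that differed by far less than either did from the hypoxic array. FBL, the methyltransferase fibrillarin, and NOB1, a nuclease of the small subunit, stayed at 0.06 and 0.12. IMP3, a small subunit processome protein, was the member that was higher, with 652 in hypoxia with DMSO and 291 in normoxia with 100 nM. Another 8 members lay just inside the limit, from -0.99 to -0.92 on the log2 scale.

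The decreases in this list stood out less for the products of the pathway. Of 65 cytosolic ribosomal protein genes 2 were at least 2-fold lower (3.08%, against 1.33% of all genes), with a median log2 difference of -0.05. They were the paralog RPL22L1 and the ribosomal protein-like RPL7L1. Of 74 mitochondrial ribosomal protein genes 3 were lower (4.05%), MRPL15 at -1.39, MRPS23 at -1.31 and MRPS18C at -1.12. Of these 74 genes 65 were below 0, and their median was -0.32. Mitochondrial biogenesis regulators had 2 of 15 lower (13.3%) and a median of -0.29. PPRC1, a coactivator related to PGC-1 alpha, had 222 in hypoxia with DMSO, 1016 in normoxia with 100 nM and 1015 in normoxia with DMSO. TWNK, the helicase of mitochondrial DNA, had 147, 460 and 643. The normoxic arrays were nearly equal at PPRC1.

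At all 5 of the small noncoding RNAs among the 9 largest decreases the normoxic arrays differed by more than 2-fold. RNU4-1, a U4 spliceosomal RNA gene, had 586 in hypoxia with DMSO, 3328 in normoxia with 100 nM and 502 in normoxia with DMSO. RNU11, the U11 RNA of the minor spliceosome, had 153, 698 and 116. On the 3 other hypoxic arrays RNU4-1 had 499 to 1078 and RNU11 had 140 to 183, so the normoxic array with 100 nM held the highest value of all 6 for each. RNU4-2, the other U4 gene, had 54.0, 487 and 94.9, and RNU5B-1 had 85.8, 233 and 122. The log2 differences of RNU4-1 and RNU11 were -2.51 and -2.19 against normoxia with 100 nM and 0.22 and 0.40 against normoxia with DMSO, which turned the direction. RNU4-2 was at -0.81 and RNU5B-1 at -0.50 there, so that none of the 4 small nuclear RNAs lower than with 100 nM was at least 2-fold lower than with DMSO. These 4 were among 11 measured (36.4%, against 1.33% of all genes), a list made after the values were seen. The median log2 difference of the 11 was -0.11 against normoxia with 100 nM. RMRP, the RNA of RNase MRP, and RNU6ATAC were at 0.04 and -0.04. U4 genes are near-identical copies, and their probe sets may share signal.

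C/D box small nucleolar RNAs are a class that includes guides of ribosomal RNA methylation. Of the 115 measured, 66 were brighter than the median probe set. Among all 115, 7 were at least 2-fold lower (6.09%, against 1.33% of all genes) and none was higher, with a median log2 difference of -0.14. Against normoxia with DMSO 5 were lower (4.35%, against 3.68% of all genes) and 2 higher, the median was 0.01, and 1 of the 7 remained lower. That one was SNORD49A, at -1.56 against normoxia with 100 nM and -1.47 against normoxia with DMSO. SNORD102, another of the 7, was dim, with 37.7 in hypoxia with DMSO and 78.8 in normoxia with 100 nM, below the array medians. SNORD14E had 130 in hypoxia with DMSO, 928 in normoxia with 100 nM and 210 in normoxia with DMSO, and SNORD14C had 583, 3315 and 1096. RefSeq (GRCh38.p14) places both inside HSPA8, the constitutive heat shock chaperone, whose probe set had 16872 in hypoxia with DMSO and 19541 in normoxia with 100 nM, a log2 difference of -0.21. The HSPA8 intensities, like those of LDHA, were near the top of the range of the arrays, where a difference may be compressed. SNORD14E was at -0.69 and SNORD14C at -0.91 against normoxia with DMSO. On the array of hypoxia with 100 nM, SNORD14E had 1151 and SNORD14C had 3234, near the normoxic array with 100 nM. SNORD42A inside RPL23A was at -1.32 against normoxia with 100 nM and -0.17 against normoxia with DMSO, and RPL23A at -0.13 against normoxia with 100 nM. SNORD54 inside RPS20 was at -1.25, and RPS20 at -0.07. SNORD54 was at 0.49 against normoxia with DMSO. Of 77 H/ACA box and Cajal body RNAs 4 were lower (5.19%, against 1.33% of all genes) and none higher, with a median of 0.02. None of the 4 was at least 2-fold lower than in normoxia with DMSO. SCARNA9 and SCARNA9L, at -1.18 and -1.24, are related sequences whose probe sets may share signal. By the mean of their probe sets they were at -0.75 and -0.85.

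Several gene lists had fewer members past 2-fold against normoxia with 100 nM than against normoxia with DMSO. Immediate early genes are genes that growth signals switch on within minutes, and many of them encode transcription factors. Of 24, 2 were higher (8.33%, against 1.69% of all genes) and 2 lower (8.33%, against 1.33%), with a median log2 difference of -0.08. Against normoxia with DMSO 9 of the 24 were higher (37.5%, against 1.67% of all genes), none was lower and the median was 0.75. FOSB had 421 in hypoxia with DMSO, 416 in normoxia with 100 nM and 120 in normoxia with DMSO. FOS, named here after its values were seen, had 2803, 2193 and 261. EGR1 had 2248, 5751 and 1517, and NR4A1 had 3862, 8295 and 2491, so that both were lower than in normoxia with 100 nM and higher than in normoxia with DMSO. JUN had 747, 325 and 152, and IER3, a survival gene, had 11314, 2844 and 2450. JUN and IER3 were thus higher under either baseline. In 23 of the 24 genes the value in normoxia with 100 nM was above that in normoxia with DMSO.

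**Figure D4:**
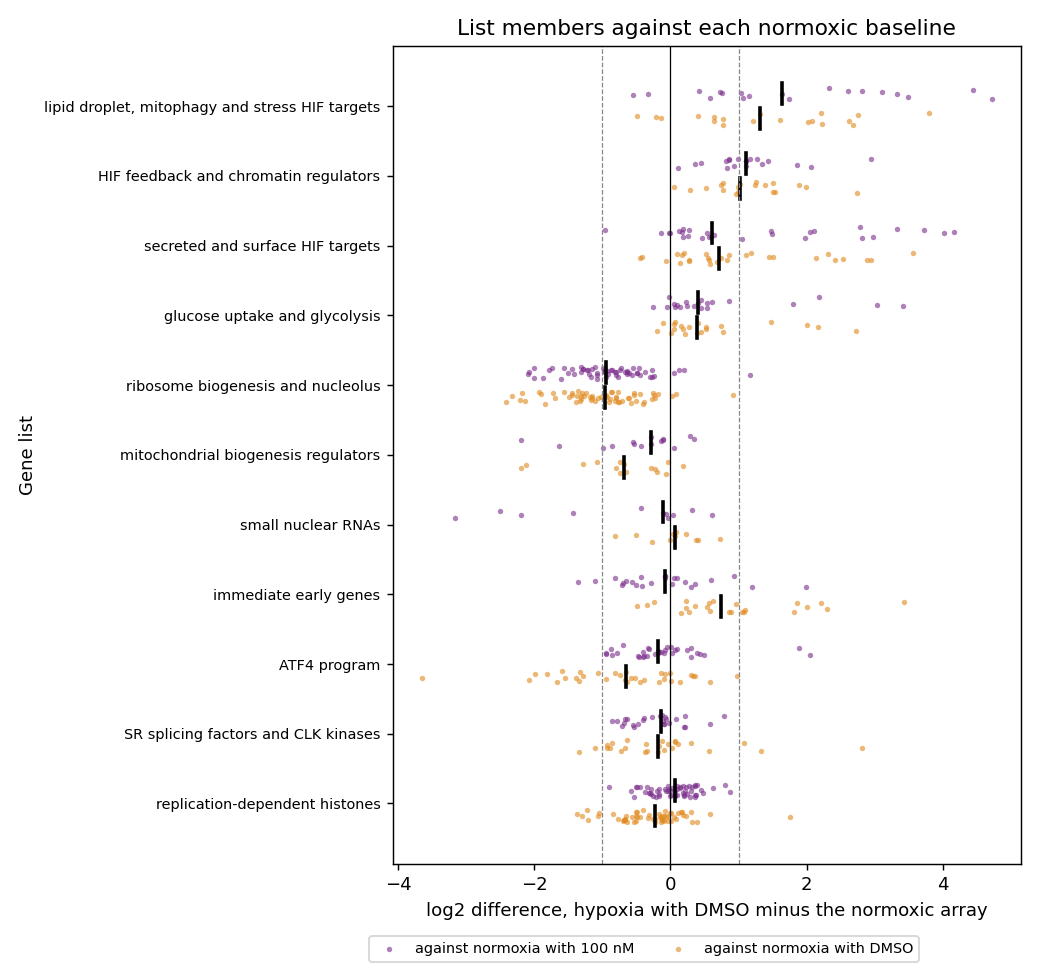
Log2 difference (horizontal axis) of each member of 11 gene lists for the hypoxic array with DMSO minus the normoxic array with 100 nM (purple) and minus the normoxic array with DMSO (orange), with black bars at the list medians and dashed lines at 2-fold. The ribosome biogenesis median was -0.94 against normoxia with 100 nM and -0.96 against normoxia with DMSO. In the same order, the HIF target lists plotted had medians of 1.64 and 1.31 (lipid droplet, mitophagy and stress), 1.10 and 1.03 (feedback and chromatin), 0.62 and 0.71 (secreted and surface), and 0.40 and 0.39 (glycolysis). The immediate early median was -0.08 and 0.75, and the ATF4 program median was -0.18 and -0.65.

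The ATF4 program supplies amino acids under stress. Against normoxia with 100 nM 2 of its 34 genes were higher (5.88%, against 1.69% of all genes) and none was lower. The median log2 difference was -0.18. Against normoxia with DMSO none was higher, 12 were lower (35.3%, against 3.68% of all genes with that baseline) and the median was -0.65. SESN2, a stress-induced brake on mTORC1, had 284 in hypoxia with DMSO, 279 in normoxia with 100 nM and 1196 in normoxia with DMSO. CHAC1, a glutathione-degrading enzyme named here after its values were seen, had 167, 123 and 2107. The 2 higher genes were STC2 and VLDLR, a lipoprotein receptor, with 1174, 316 and 597, and both were under 2-fold against normoxia with DMSO, STC2 at 0.14 and VLDLR at 0.98. PHGDH, the first enzyme of serine synthesis, was at 0.01. Of 480 ZNF zinc finger genes 5 were higher (1.04%, against 1.69% of all genes) and 2 lower (0.42%, against 1.33%), with a median of -0.03. With normoxia with DMSO as the baseline 5 were higher and 50 lower (10.4%), with a median of -0.22. ZNF395 had 1009 in hypoxia with DMSO and 242 in normoxia with 100 nM, and ZNF292 had 1210 and 293. None of 26 splicing factor and CLK kinase genes and none of 57 replication-dependent histone genes passed 2-fold, with medians of -0.14 and 0.07, whereas 3 and 1 were higher and 2 (7.69%) and 6 (10.5%) lower against normoxia with DMSO. Of all genes 3.68% were lower against that array, and 1.33% were lower against normoxia with 100 nM. H2BC14, a histone H2B gene, had 8166 in hypoxia with DMSO, 8179 in normoxia with 100 nM and 13153 in normoxia with DMSO.

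The Notch, hedgehog, ERK feedback, clock and mTORC1 lists were small and held 1 to 5 higher genes each, shares above the 1.69% of all genes that were higher. HES1, a Notch target and repressor, had 5000 in hypoxia with DMSO, 1247 in normoxia with 100 nM and 347 in normoxia with DMSO, and HEY1 had 180, 74.5 and 94.7. These were the 2 of 20 Notch genes that were higher (10.0%). PTCH1, the hedgehog receptor, was the 1 of 15 hedgehog genes, with 716, 286 and 560. SPRY1, which damps ERK signalling, had 608, 174 and 214, and was with IER3 1 of the 2 of 18 ERK feedback genes that were higher (11.1%). Among 16 clock genes 5 were higher (31.25%) and 1 lower. PER1, a core repressor, had 2155, 753 and 366, NFIL3, a repressor of clock output, was at 1.62, and CLOCK itself was at -1.02. PER2 sat on the limit at 1.00. DDIT4L and RRAGD, regulators of mTORC1, were at 1.52 and 2.33, the only ones of 18 past 2-fold. With normoxia with DMSO as the baseline, HEY1 at 0.93, PTCH1 at 0.35, PER2 at 0.33 and DDIT4L at 0.82 were under 2-fold.

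Growth and redox genes were mostly below 0. Of 30 G1/S and replication genes 28 were below 0 and 2 were at least 2-fold lower (6.67%, against 1.33% of all genes). The median log2 difference of the 30 was -0.40. CDC6, which licenses replication origins, had 807 in hypoxia with DMSO and 1700 in normoxia with 100 nM, and CCNE2, a G1/S cyclin, had 339 and 722. Of 29 G2/M genes none passed 2-fold, with a median of -0.13. The polyamine enzymes ODC1, with 2203 and 5504, and AMD1, with 402 and 1125, were lower, and ARG2, an arginase that feeds the pathway, was at the limit with 249 and 124, and under it at 0.69 against normoxia with DMSO. Of 28 NRF2 targets 26 were below 0 and 2 were lower (7.14%). These 2 were GCLM, a subunit of the glutathione-synthesizing ligase, with 771 and 1822, and SRXN1, sulfiredoxin, with 2538 and 5747. NQO1, the classic NRF2 target, had 13853 and 14280. Heat shock chaperones, a list added after the values were seen, had 3 of 26 lower (11.5%, against 1.33% of all genes). They were DNAJA1 at -1.74, CHORDC1 at -1.48 and HSPH1 at -1.07. Against normoxia with DMSO DNAJA1 was the 1 of 26 that was lower (3.85%, against 3.68% of all genes), at -1.35. There CHORDC1 was at -0.996 and HSPH1 at -0.62.

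The other hypoxic arrays give the leading lists a context with the same normoxic baseline. The HIF targets had a median log2 difference over normoxia with 100 nM of 0.79 in hypoxia with DMSO, 0.70 on the array titled 10 nM (source name 1 nM), 0.34 on the array titled 1 nM (source name 10 nM) and 0.23 in hypoxia with 100 nM. For ribosome biogenesis genes these values were -0.94, -0.71, -0.39 and -0.20. At least 2-fold higher were 49, 48, 26 and 8 of the 118 HIF targets, and at least 2-fold lower were 25, 14, 0 and 0 of the 61 ribosome biogenesis genes. Over all 18417 genes, 556, 352, 116 and 39 differed by at least 2-fold in either direction, so the counts fell over all genes too. In hypoxia with 100 nM, 0.147% of all genes were higher and 0.065% lower. All 4 contrasts share the normoxic array with 100 nM and each rests on 1 hypoxic array. The normoxic array with DMSO had medians of 0.06 for the HIF targets and 0.09 for the ribosome biogenesis genes against it, with 8 HIF targets at least 2-fold higher than with 100 nM, HILPDA, NRN1 and STC2 among them, and 1 lower. Of all genes 0.956% were higher and 0.358% lower between these normoxic arrays.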

How the data were processed

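Total RNA of 6 H460 cultures was hybridized to Affymetrix Human Gene 1.0 ST arrays, 1 array per condition. The values used are linear intensities of 33297 probe sets as deposited by the authors. The study's methods name MAS 5.0 and Expressionist, whereas the submitters' processing notes name RMA with no version, so the summary method of the deposited intensity values is unsettled. The sources used here name no genome build or annotation.

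Symbols came from GEO's platform annotation. Of the probe sets, 19460 had 1 symbol, 1754 had several and 12083 had none listed. Symbols were updated through RefSeq by Entrez identifier (19429 matched), and the probe set with the highest mean over 6 arrays stood for each of 18417 genes. Intensities were taken to log2 with no pseudocount (Python 3.11.15, pandas 2.3.3, numpy 2.4.6). The comparison, its lists and its rules were chosen with earlier results of these data known. Heat shock chaperones and small nuclear RNAs were listed after the values were seen.

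Named were the 25 largest increases and 25 largest decreases among genes whose brighter array of the 2 reached its median, up to 6 members of each list past 2-fold and up to 2 nearest to 0, and genes the study names. Other genes are marked as chosen after their values were seen, and members named beyond these are in the lists. Promoters were read from RefSeq (14239 measured genes matched). The calculation was tested on simulated data. Alternatives were quantile normalization, centring, an offset of 32, the brighter genes alone, averaging the probe sets of each gene, the other normoxic array, the mean of both, the hypoxic array titled 10 nM, and limits of 1.5- and 3-fold. No columns of other samples were present. With 1 array a side the number of arrays limits the precision.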

Additional observations from a re-analysis of the deposited data

Results flagged for a closer look

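Probe sets with no symbol in the annotation used here took no part in the comparison. Of these 12083, 538 had a 2-fold or larger increase and 608 a 2-fold or larger decrease on the hypoxic array with DMSO, relative to normoxia with 100 nM. Among the 3717 of them that were brighter than the median probe set, 77 were higher and 148 were lower. The other 461 higher and 460 lower probe sets were at or below the median probe set, and noise of dim probe sets could not be told apart from a difference with 1 array a side. They are given as counts outside the genes described, and their part in the response was not tested.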

How the results depend on the processing

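Under 8 alternatives the median log2 difference of the HIF targets was 0.69 to 0.86 and that of the ribosome biogenesis genes -1.04 to -0.71, all within 1.5 times the values given. That of the C/D box small nucleolar RNAs was not stable, with -0.23 after centring, -0.057 with 32 added, -0.061 with the mean of both normoxic arrays, -0.0077 with the array titled 10 nM, and 0.011 with normoxia with DMSO, which turned the direction. The 311 higher genes stayed within 1.5 times that count except at other limits, with 1367 at 1.5-fold and 92 at 3-fold. The 245 lower genes became 677 with normoxia with DMSO as the baseline, 81 when the array titled 10 nM stood for hypoxia, 1175 at 1.5-fold and 31 at 3-fold. With normoxia with DMSO the direction turned for RNU4-1 (0.22), RNU11 (0.40), SNORD54 (0.49), SNORD102 (0.025), EGR1 (0.57) and NR4A1 (0.63), and with the array titled 10 nM for SNORD102 (0.060). Of the 125 named genes past 2-fold, 34 were under 2-fold with normoxia with DMSO, 27 with the array titled 10 nM, 20 with the mean of both normoxic arrays, and 15 with 32 added. Quantile normalization left 6 under 2-fold and centring 5. The mean of probe sets left 4 under 2-fold, GPATCH4 at -0.87, SCARNA9 at -0.75, SCARNA9L at -0.85 and ZNF626 at -0.56. The causes were not tested. No paired analysis was possible because each condition had 1 array.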

Other observations

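The lists given in this section had at most 2 members each past 2-fold. Of 35 tRNA synthetases 30 were below 0 and 1 was at least 2-fold lower, MARS2, the mitochondrial methionine enzyme, with an intensity of 480 in hypoxia with DMSO and 1039 in normoxia with 100 nM, and the list's median log2 difference was -0.35. Of 33 translation factors none passed 2-fold, with a median of -0.18. Of 25 nucleotide synthesis genes UMPS, which makes uridine monophosphate, was lower with 337 and 700, and PAICS, a purine enzyme, had 5005 and 5030. Of 11 genes of the MYC network MGA, which pairs with MAX, was lower with 299 and 627, and at -0.71 against normoxia with DMSO it was under 2-fold.

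None of 22 unfolded protein response genes, 20 autophagy genes, 19 interferon-stimulated genes and 15 genes of natural killer ligands and antigen presentation passed 2-fold. DNAJB9, an ER chaperone, had 420 in hypoxia with DMSO and 424 in normoxia with 100 nM, whereas normoxia with DMSO had 143. Of 25 sterol and fatty acid synthesis genes ELOVL6 was lower, and CYP51A1 of the sterol branch had 2905 and 2919. Of 21 p53 targets TIGAR, a regulator of glycolysis, was lower with 138 and 334, and PLK3, a stress kinase, with 306 and 742. On the normoxic array with DMSO TIGAR had 353 and PLK3 had 391, so that PLK3 was at -1.28 against normoxia with 100 nM and within 2-fold at -0.35 against normoxia with DMSO. ARRDC3, an arrestin domain gene, was higher with 7556 and 3736, and at 0.92 when arrays were centred on their medians.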
